A study of Caenorhabditis elegans with 4 samples.

Results

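The peaks described here are those that chromatin immunoprecipitation with sequencing (ChIP-seq) of JUN-1::GFP placed on chromosome III of Caenorhabditis elegans. They are the entries of the authors' combined peak list whose sequence name is III, 542 of 4277 peaks in all. The same chromosome holds 329 of 2370 peaks in the list of ChIP replicate 1 and 540 of 4272 in that of ChIP replicate 2. The series has 4 libraries, with 2 ChIP and 2 input replicates, and only the ChIP libraries have a peak list used here. All 4 come from hermaphrodites at the first larval stage (L1) of strain OP234. This strain carries the unc119(ed3) mutation and the integrated transgene wgIs234, which was introduced by bombardment and makes the product of T24H10.7 (jun-1) with TY1, EGFP and FLAG tags, together with unc119. The tagged copy is thus present in the inputs too. Worms were grown at 20 degrees Celsius, while the stage label reads L1 26dC, and which temperature applied was not settled. The labels do not state whether replicates 1 and 2 were separate cultures. No control precipitation from untagged worms was analysed here. Binding of JUN-1 itself at a given peak was not tested.

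JUN-1 belongs to the basic leucine zipper transcription factors and resembles c-Jun of mammals. Proteins of this family bind DNA as dimers, and in mammals c-Jun pairs with Fos proteins to form AP-1, a regulator of responses to growth signals and stress. Worm autosomes such as III have a central region rich in conserved, widely expressed genes and arms that recombine more often and hold more repeats. Peaks of transcription factors lie mostly in accessible regulatory DNA, and the arms and the centre of III are described apart for this reason.

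Each peak has a start, an end and a q-value, the authors' own measure of its statistical significance. Strength here means -log10 q, on which larger means stronger, and rank 1 is the smallest q of a whole list. It is not a measure of fold enrichment or of the amount of protein bound. The lists hold no read counts, so sequencing depth is unknown. Positions are on build WS180 and are given without genes, exons, introns or sequence, because no annotation or genome of that build was used here. Shares carry 95% exact Clopper-Pearson intervals over peaks, which cover counting error only. Peaks of 1 library are not independent replicates, and with 1 list per replicate no comparison here carries a p-value.

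JUN-1::GFP peaks were spread over the whole of chromosome III and were densest in its central 50%. Taken over the 3 lists, they ran from position 25602 to 13771386. Over this span of 13745785 bp the combined list had 39.4 peaks per Mb, and the peaks covered 252437 bp, or 1.84%. On II and IV, the autosomes set beside it, the densities were 28.4 and 32.0 peaks per Mb and the covered shares 1.50% and 1.50%. These were the sparsest chromosomes of the list. On I, V and X the densities were 38.1, 67.0 and 45.05 peaks per Mb and the covered shares 1.75%, 2.22% and 2.22%. Chromosome III held 12.7% (11.7 to 13.7) of all combined peaks on 13.8% of the summed spans. Its share was 13.9% (12.5 to 15.3) in the replicate 1 list and 12.6% (11.7 to 13.7) in that of replicate 2.

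The centre was taken as the middle 50% of the span, from 3462048 to 10334940, and each arm as the 25% outside it. The centre held 306 peaks, or 56.5% (52.2 to 60.7), against 59.5% over the whole combined list. The left arm held 105 peaks, or 19.4% (16.1 to 23.0), and the right arm 131, or 24.2% (20.6 to 28.0). These counts correspond to 30.6 peaks per Mb in the left arm, 44.5 in the centre and 38.1 in the right arm. The centre was thus the densest part and the left arm the thinnest. Replicate 1 gave the same order, with 62, 181 and 86 peaks, and there the right arm lay closer to the centre in density. The centre share in replicate 1 was 55.0% (49.5 to 60.5), an interval that includes 50%. The middle 33.3% of the span held 36.3% (32.3 to 40.5) of combined peaks, an interval that includes 33.3%. On II the left arm was also the thinner one, with 16.5 peaks per Mb against 28.6 in the right arm, and on IV the order was the reverse, with 34.4 and 18.4.

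Within the centre the counts of combined peaks differed between windows, and whether they differed by more than counting error was not tested. In windows of 1 Mb, the most peaks lay in III:5000001-6000000, with 59, in III:4000001-5000000, with 53, and in III:8000001-9000000, with 47. Between them, III:6000001-7000000 held 36 and III:7000001-8000000 held 37. In steps of 500 kb the count went from 34 in III:5500001-6000000 to 24 and then 12 in the windows that follow, and back to 24 in III:7000001-7500000. This run was singled out from all 500 kb windows of III. The thinnest windows were III:11000001-12000000, with 27, and III:1-1000000 and III:2000001-3000000, with 29 each. The last window, which ends before its full length, held 31. The replicate 1 list gave another order within the centre. There III:4000001-5000000 held 29 peaks, III:5000001-6000000 held 27 and III:6000001-7000000 held 20. Both III:7000001-8000000 and III:8000001-9000000 held 32, so the window with the most combined peaks did not lead in replicate 1.

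**Figure D1:**
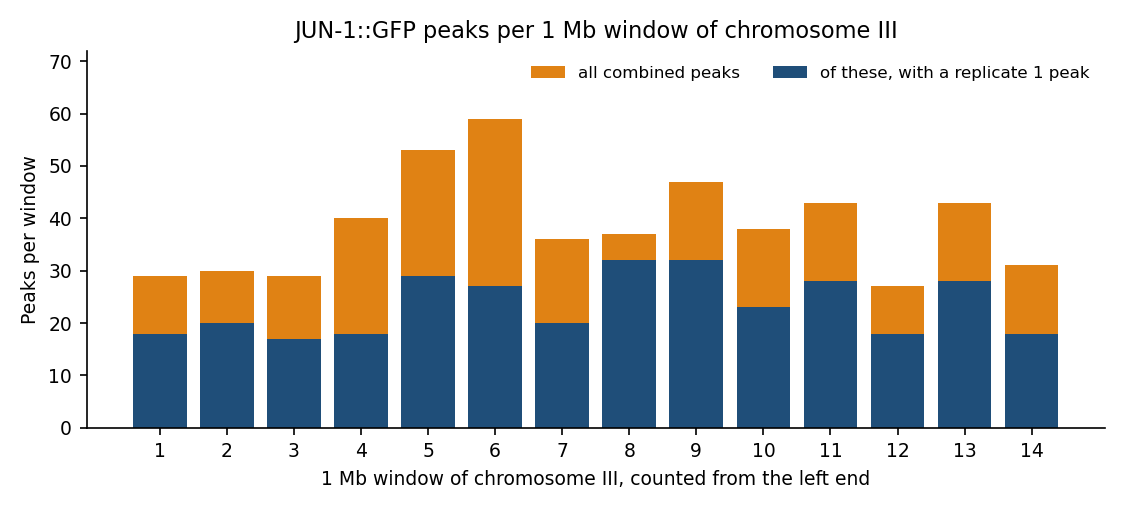
Combined JUN-1::GFP peaks in each 1 Mb window of chromosome III (x axis, windows numbered from the left end; y axis, number of peaks), with the part that overlapped a replicate 1 peak in blue. Window 6 holds 59 peaks of which 27 have a replicate 1 peak, and window 8 holds 37 of which 32 do.

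The strongest peak on III was III:4281479-4282710, in the centre. It was 1232 bp wide, with a combined q of 8.8e-102 at rank 18 and a replicate 1 q of 3.9e-56 at rank 28. It was the only peak of III among the 25 strongest of the combined list. The next was III:12612213-12612934 in the right arm, with q = 1.4e-87 at combined rank 32 and 8.7e-54 in replicate 1. The third was III:3866922-3867780, with a combined q of 3.5e-79 at rank 42. In replicate 1 this peak came before all others on the chromosome, with q = 4.4e-65 at rank 20, so the replicates differ on which peak of III leads.

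The peaks III:4899608-4900144 and III:10758889-10759410 followed, with q of 9.4e-75 and 1.7e-71 at ranks 48 and 49. They were 537 and 522 bp wide, narrower than the leading peaks. Ranks 53 to 64 held III:8801267-8802600, III:832864-836343, III:1924892-1925640, III:1920925-1921972, III:8416915-8417993 and III:7854372-7854813, with q from 2.1e-68 to 2.2e-60. The last of these was 442 bp wide, while III:832864-836343, at 3480 bp, was the widest peak of the chromosome. Ranks 72 to 93 held III:12904878-12905301, III:8794653-8796156, III:9765298-9765871 and III:13643384-13643853, with q from 6.3e-56 to 3.4e-51. The 20 strongest were completed by III:5018069-5018474, III:9618899-9619834, III:1923204-1924029, III:13060928-13061477 and III:8799769-8800970, at ranks 110 to 126.

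Each of these 20 peaks overlapped a peak in both replicate lists, and no stronger peak of III was passed over. Of the 20, 11 lay in the centre, 4 in the left arm and 5 in the right arm. Their median width was 788 bp, with a range of 406 to 3480 bp, against 370 bp for all peaks of III. Their ranks ran from 18 to 126 in the combined list and from 20 to 181 in replicate 1. Dividing -log10 q of replicate 1 by that of replicate 2 at these 20 peaks gave a median log2 ratio of -0.73. The 20 were picked by combined q, and 18 of them are identical to replicate 2 peaks. Picking on the divisor can by itself lower this ratio.

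Peaks of III occurred at all levels of the combined ranking. The chromosome gave 1 of the 25 strongest combined peaks, 4 of ranks 26 to 50 and 10 of ranks 51 to 100, a share of 20% (10.0 to 33.7) in that last step. The next 100 ranks held 14 of its peaks, the 200 after those held 27, or 13.5% (9.09 to 19.0), and the 800 ranks that end at 1600 held 87, or 10.9% (8.80 to 13.2). Beyond rank 1600 there were 352, or 13.1% (11.9 to 14.5). The intervals of the upper steps are wide and include the share of 12.7% over the whole list. Chromosomes II and IV gave 1 peak each among the 25 strongest, 4 and 0 at ranks 26 to 50, and 2 and 6 at ranks 51 to 100. In the replicate 1 list 17 of the 100 strongest peaks were on III, and 15 in that of replicate 2.

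Over all 542 peaks -log10 q had a median of 6.51, with quartiles of 4.48 and 11.2 and a highest value of 101.1. By zone the median was 6.51 in the left arm, 6.45 in the centre and 6.64 in the right arm, and differences between zones were not tested. The medians on II and IV were 5.91 and 6.85. The higher density of the centre was therefore not matched by a higher median strength.

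**Figure D2:**
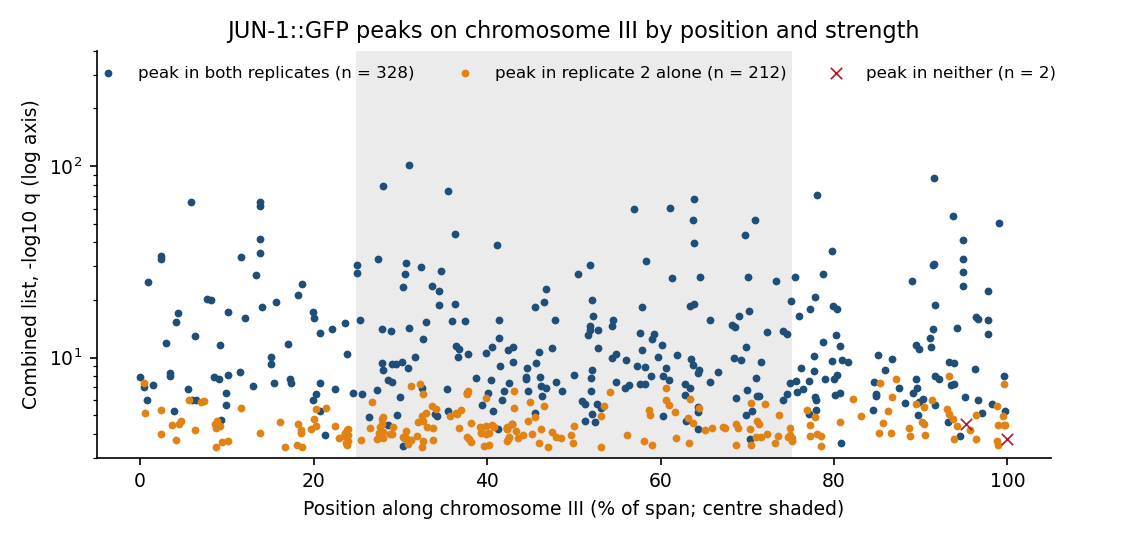
Every combined peak on chromosome III by position (x axis, percent of the span, with the centre shaded) and strength (y axis, -log10 q, log axis), coloured by whether it overlapped a peak in both replicates, in replicate 2 alone or in neither. Peaks of replicate 2 alone reach no higher than 8.01, while those found in both go up to 101.1, and strong peaks appear in both arms as well as in the centre.

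Many peaks of III had close neighbours. The bases between a peak and the next had a median of 13873, with quartiles of 4157 and 35155. Median gaps were 18223 bp in the left arm, 12617 bp in the centre and 14518 bp in the right arm, the same order as the densities. The shortest gap was 204 bp, and 45 of 541 gaps were under 1000 bp, against 35 of 432 on II and 53 of 557 on IV. On II the median gap was 18783 bp and on IV 16390 bp. Over all chromosomes but III it was 9761.5 bp, shorter than on III.

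With peaks joined where fewer than 5000 bp lay between them, the 542 peaks formed 394 units. Of these, 293 were single peaks and 101 were groups, 71 of them with 2 peaks, 20 with 3 and 10 with more. The groups took in 249 peaks, or 45.9% (41.7 to 50.2), against 38.3% (33.7 to 43.1) on II and 47.7% (43.5 to 51.9) on IV. This share was not computed over the whole list. Over all chromosomes but III the lower quartile of gaps was 2600.8 bp, against 4157 bp on III, so close neighbours were not particular to III. Peaks in groups had a median -log10 q of 6.67 and a median width of 402 bp, and single peaks 6.31 and 351 bp. The upper quartile of -log10 q was 13.7 in groups and 9.76 for single peaks. Of the 15 peaks of III among the 100 strongest of the list, 9 were in groups and 6 were single. Both kinds were found in replicate 1 at about the same share, 61.4% (55.1 to 67.5) and 59.7% (53.9 to 65.4).

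The largest group held 9 peaks in III:3854904-3876888, 21985 bp in the centre. At its middle lay III:3866922-3867780, the leading peak of replicate 1 on III, and it stood well above the other members. The second by strength was III:3862857-3863301 with q = 8.4e-15, at rank 106 among the peaks of III. Both III:3854904-3855132 and III:3869202-3870052, with -log10 q of 9.39 and 8.57, also lay above the chromosome's median of 6.51, while 5 of the 9 had no replicate 1 peak, with -log10 q between 3.81 and 4.92. The group thus mixed strong, middling and weak peaks, and its outermost peaks on the right were 986, 705 and 640 bp wide despite their low strength.

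A group of 5 peaks in III:1920925-1926858, only 5934 bp of the left arm, had another make-up. It held III:1924892-1925640, III:1920925-1921972, III:1923204-1924029 and III:1926356-1926858, with combined q of 2.5e-65, 1.6e-62, 2.4e-42 and 5.4e-36. In replicate 1 these 4 peaks had q of 1.9e-39, 8.8e-42, 1.3e-20 and 4.1e-21. The fifth peak, III:1922397-1922829, had q = 9.2e-05 and no replicate 1 peak. Here 4 strong peaks stood within 6 kb, 3 of them among the 20 strongest of the chromosome. 

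The other group of 5, III:5835173-5845774, stood in the window with the most combined peaks and had no strong member. Its q-values ran from 4.6e-05 to 0.00021, its widths from 327 to 786 bp, and 0 of its 5 peaks had a replicate 1 peak. A group of 4 in III:8794653-8802600, chosen after its values were seen, had 4 of 4 peaks in replicate 1 and combined q of 7.8e-53, 7.0e-20, 2.3e-40 and 2.1e-68. Groups of close peaks on III thus included sets that were strong throughout and sets that were weak throughout.

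The chromosome also had stretches without peaks. The longest, between III:11445216 and III:11641303, measured 196086 bp in the right arm. The next lay between III:1424645 and III:1602732, with 178086 bp in the left arm, and between III:6710277 and III:6857334, with 147056 bp in the centre. None of these 3 stretches held a peak in either replicate list. Gaps over 100000 bp numbered 21 on III, 33 on II and 31 on IV.

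**Figure D3:**
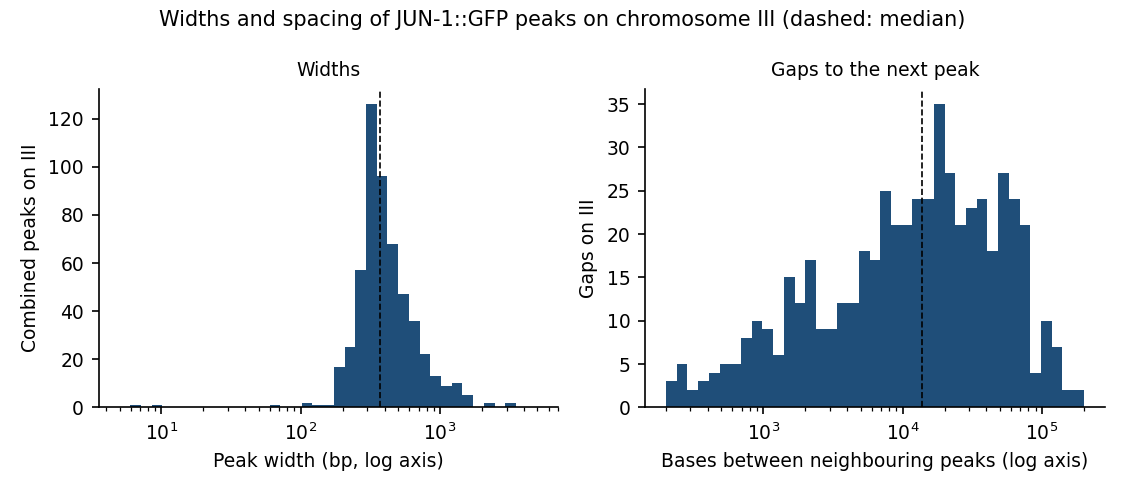
Widths of the 542 combined peaks on III (left, x axis in bp, log axis) and the bases between neighbouring peaks (right, 541 gaps, log axis), with the number of peaks or gaps on the y axes and medians dashed. Widths bunch around their median of 370 bp, while gaps extend from 204 to 196086 bp.

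Peak widths on III had quartiles of 310 and 519 bp and ran from 6 to 3480 bp. The median was 370 bp in the combined list, 366 bp in replicate 1 and 371 bp in replicate 2. On II and IV it was 395 and 381 bp. By zone the median was 357 bp in the left arm, 372 bp in the centre and 386 bp in the right arm. Peaks with a smaller q tended to be wider. The q-value belongs to the whole peak, and without read counts its dependence on width could not be separated from strength. Across the 542 peaks, which share 1 library set, the Spearman rho between width and -log10 q was 0.51, and on II and IV it was 0.47 and 0.52.

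Wide peaks of 700 bp or more numbered 65 on III, or 11.99% (9.38 to 15.03), and 55 of them had a replicate 1 peak. The share was near the 10.8% (9.86 to 11.9) of the other chromosomes, where 342 of 405 had one, and it was 17.8% on II and 12.5% on IV. Peaks of 1000 bp or more numbered 28, and 26 of these had a replicate 1 peak, against 142 of 159 on the other chromosomes. The 5 widest were III:832864-836343 with 3480 bp, III:9663925-9666992 with 3068 bp, III:5938829-5940946 with 2118 bp, III:12613999-12616113 with 2115 bp and III:13070341-13071901 with 1561 bp. Each overlapped a replicate 1 peak, as did all 27 peaks of 2000 bp or more on the other chromosomes. Width and strength parted at III:5938829-5940946, which ranked 1053 in the list with q = 3.8e-12.

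At the narrow end, 18 peaks were under 200 bp, or 3.32% (1.98 to 5.20), against 12.6% (11.6 to 13.7) on the other chromosomes. Of the 471 such peaks elsewhere, 372 were on V. On II the share was 3.23% and on IV 5.02%. The narrowest peaks of III were III:3322804-3322809 with 6 bp, III:13119441-13119449 with 9 bp, III:9956200-9956261 with 62 bp, III:3858050-3858158 with 109 bp and III:4204119-4204229 with 111 bp. None of these 5 had a replicate 1 peak, and their q-values ran from 1.7e-05 to 0.00016. Of all peaks under 200 bp, 1 of 18 on III and 44 of 471 elsewhere had one.

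Peaks of III were looked for in the replicate lists by an overlap of 1 bp or more, to ask which were found again. A replicate 1 peak was found for 328 of 542 combined peaks, or 60.5% (56.3 to 64.7), against 54.3% over the whole combined list. On II and IV the shares were 55.9% (51.1 to 60.6) and 60.8% (56.6 to 64.8), so that III lay within their range. The share over the whole list includes chromosome I, at 37.8% (33.8 to 41.9), and over all chromosomes but I and III it was 56.3% (54.5 to 58.0), an interval that overlaps that of III. A replicate 2 peak was found for 540, or 99.6% (98.7 to 99.96), against 99.4% over the whole list. The 328 peaks found in replicate 1 were all found in replicate 2 as well, and the share in both was 54.3% over the whole list. In replicate 2 alone were 212 peaks, or 39.1% (35.0 to 43.4), against 45.1%. The remaining 2 peaks, III:13119441-13119449 and III:13771078-13771386, overlapped neither replicate, against 0.585% over the whole list.

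Seen from the replicate lists, each of the 329 replicate 1 peaks on III overlapped a replicate 2 peak, against 99.5% over all chromosomes. In the other direction 328 of 540 replicate 2 peaks overlapped a replicate 1 peak, or 60.7% (56.5 to 64.9), against 54.4%. Matches were almost entirely one to one, since 327 replicate 2 peaks had 1 partner in replicate 1 and 1 had 2. On III, the replicate 1 peaks were thus a subset of the replicate 2 peaks by this measure.

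Whether a peak was found in replicate 1 followed its strength. The 542 peaks were divided by rank into 4 classes of 135 or 136. All 136 peaks of the strongest class were found, 124 of 135 in the next, or 91.9% (85.9 to 95.9), then 60 of 135, or 44.4% (35.9 to 53.2), and 8 of 136, or 5.88% (2.57 to 11.3). At the same ranks, II and IV together gave 100%, 90.8% (86.5 to 94.1), 37.8% (31.5 to 44.3) and 6.92% (4.15 to 10.7). The intervals of III and of II with IV overlapped in every class. Against all chromosomes but I and III they did not overlap in the third class, where those gave 32.2% (28.9 to 35.6), and they did in the second, with 84.7% (82.1 to 87.1). Chromosome I gave 50.4% (41.5 to 59.3) in the second class and 4.11% (1.52 to 8.73) in the third, below III in both. None of these differences was tested. Combined peaks found in both replicates had a median -log10 q of 9.47, and those of replicate 2 alone 4.32 with a highest value of 8.01. The strongest of the latter were III:12849139-12849890 with q = 9.7e-09, III:12003019-12003545 with 1.9e-08, III:11746538-11746983 with 4.2e-08, III:87193-87520 with 4.3e-08 and III:4456677-4457010 with 5.0e-08. The strongest ranked 1666 in the list, and 3 of the 5 lay in the right arm.

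**Figure D4:**
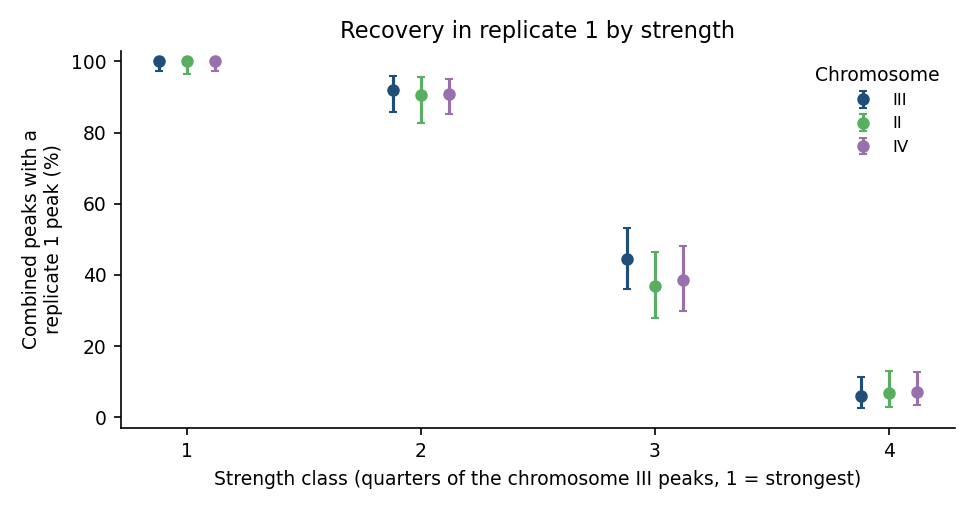
Share of combined peaks with a replicate 1 peak (y axis, percent, with 95% exact intervals) in 4 strength classes (x axis), for III and, at the same ranks, for II and IV. On III the share falls from 100% in the strongest class to 5.88% in the weakest, and the intervals of the 3 chromosomes overlap in each class.

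Along the chromosome the share found in replicate 1 was 59.0% (49.0 to 68.5) in the left arm, 59.2% (53.4 to 64.7) in the centre and 64.9% (56.1 to 73.0) in the right arm, and these intervals overlap. Between windows it varied more. In III:7000001-8000000, 32 of 37 peaks were found, or 86.5% (71.2 to 95.5). In III:5000001-6000000 it was 27 of 59, or 45.8% (32.7 to 59.3), and in III:3000001-4000000 it was 18 of 40, or 45% (29.3 to 61.5). The windows also differed in strength, with a median -log10 q of 8.58 in the first of these and 5.31 and 4.62 in the others. Among peaks of the 2 middle strength classes alone, the shares were 87.0% (66.4 to 97.2) of 23 peaks, 63.0% (42.4 to 80.6) of 27 and 75% (42.8 to 94.5) of 12, and these intervals overlap. The windows were picked after their values were seen.

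Strength in the replicates was compared at the 327 peaks of III that overlapped one to one. Replicate 1 was weaker at nearly all of them. The median -log10 q was 6.31 in replicate 1 and 9.47 in replicate 2, and the median log2 ratio was -0.62, with quartiles of -0.79 and -0.43. By zone the median was -0.62 in the left arm, -0.65 in the centre and -0.56 in the right arm. On II and IV it was -0.64 and -0.64, and on I, where replicate 1 was weaker still, -1.05. The ranks were similar, since the Spearman rho of -log10 q was 0.92 and Pearson's r 0.98, and the rho of width was 0.92. These are descriptions across peaks of the same 2 libraries, and the depth of each is unknown.

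Replicate 1 peaks were also somewhat narrower. Their median width was 366 bp, against 405 bp for their partners, and 286 of the 327 were narrower. On the other chromosomes 1712 of 1956 were narrower. The median shift was 15 bp at the start and 16 bp at the end. Edges of shared peaks thus lay close together beside the widths of the peaks.

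Only 6 of the 327 pairs on III were stronger in replicate 1, against 26 of 1956 on the other chromosomes. The 6 pairs were singled out after their values were seen. The clearest was the replicate 2 peak III:4194347-4195906, with -log10 q of 3.47 there and 7.38 in replicate 1, a log2 ratio of 1.09. The replicate 2 peak was 1560 bp wide and that of replicate 1 was 729 bp. At the other 5 pairs the ratio was 0.21 or less. The largest drop was at III:12368351-12369706, with 11.1 in replicate 2 and 3.92 in replicate 1, a log2 ratio of -1.51, and there too the replicate 1 peak was narrower, with 811 bp against 1356 bp.

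**Figure D5:**
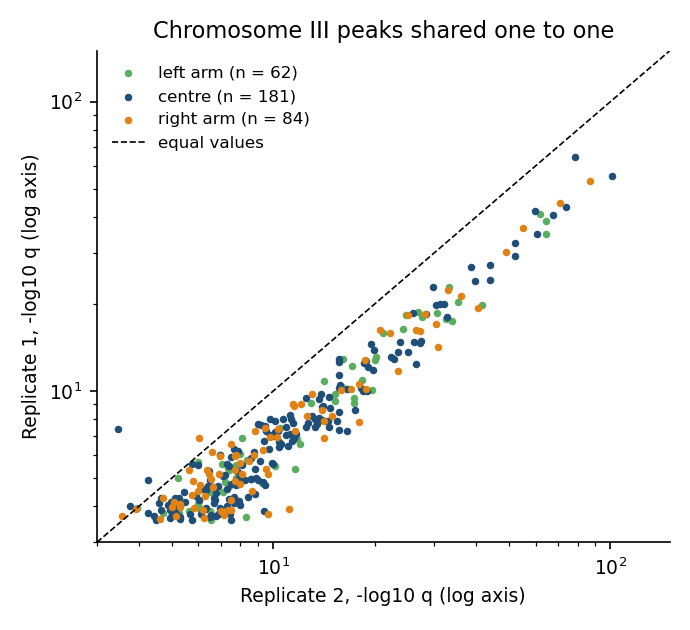
Strength of the 327 one to one peaks of III in replicate 2 (x axis, -log10 q, log axis) and replicate 1 (y axis, -log10 q, log axis), coloured by zone, with equal values dashed. All but 6 points lie under the dashed line, and the point farthest above it has 3.47 in replicate 2 and 7.38 in replicate 1.

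The combined peaks of III repeated the replicate 2 list over most of the chromosome. Start, end and q were all equal to those of a replicate 2 peak in 511 of 542 peaks, or 94.3% (92.0 to 96.1), against 83.6% over the whole list. This held for 0 peaks of replicate 1. The 31 peaks that differed were the last 31 of the chromosome. Every peak up to III:12978683-12979076 was identical, and every peak from III:13015911-13016168 to the last one, which ends at 13771386, was not.

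In this end stretch 29 of the 31 combined peaks overlapped a replicate 2 peak, and each of the 29 lay inside it. Edges were moved by a median of 4 bp and by at most 47 bp. In 15 of the 29 the q-value was unchanged, in 8 the combined peak was stronger and in 6 weaker, and the largest difference in -log10 q was 1.44. III:13643384-13643853, the strongest peak of the stretch, had q = 3.4e-51 in the combined list, 9.4e-50 in replicate 2 and 5.6e-31 in replicate 1. Both combined peaks of III without a peak in either replicate lay here. Their place was fixed beforehand, since every earlier peak equals a replicate 2 peak. Of the 31 peaks 18 had a replicate 1 peak, or 58.1% (39.1 to 75.4), close to the share over the chromosome. How the authors made the combined list is not given in the sources used here, and recovery in replicate 2 is fixed by this near identity and carries no separate information.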

How the data were processed

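The deposited files were 3 peak lists, for ChIP replicate 1, ChIP replicate 2 and a combined list. Per the file headers, the authors' coordinates are on build WormBase WS180, and the source column names PeakSeq as the caller. The only deposited value is a q-value for each peak, from which -log10 q was computed. The caller's version, the aligner, the filters, the threshold and the way of combining lists were details not given in the sources used here. Per the labels' protocols, worms were fixed with 2% formaldehyde, 10% of the chromatin was kept as input, and a goat antibody against GFP was used.

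Peaks on III were taken by sequence name. Overlap was 1 bp or more. Each chromosome was taken to run from its first to its last peak over the lists, without chromosome lengths of the build. Alternatives were a reciprocal overlap of 50%, midpoints within 200 bp, the stronger 50% of the list, each replicate's list, the central 33.3% as the centre, and clusters of peaks closer than 5000 bp. The named peaks are the 20 strongest found in both replicates, the 5 widest, the 5 narrowest, the 5 strongest without replicate 1, those without either, the 3 largest groups, longest gaps, and densest and sparsest windows. The members, lists and rules were chosen with earlier results of these data known. Computations used Python 3.11.15, numpy 2.4.6, pandas 2.3.3, scipy 1.17.1 and matplotlib 3.10.9, and functions were tested on simulated data.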

Additional observations from a re-analysis of the deposited data

How the results depend on the processing

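Of 31 alternatives to 10 results, 26 were planned and 5 were chosen after seeing the data. In 20 the value stayed within its interval or the spread between the replicate lists (for the ratio of strengths, 1 SD over peaks). Only the ratio of strengths, with 1 alternative, could have changed sign, and it did not. Recovery in both replicates rose from 60.5% to 96.2% in the stronger 50% of the list. The share over the whole list at this setting was not computed. At the ranks of the first and second strength classes, 98.9% and 80.0% of peaks on the other chromosomes had a replicate 1 peak, so high recovery of strong peaks was not particular to III. Recovery of replicate 1 peaks in replicate 2 was 96.4% with a reciprocal overlap of 50% and 95.7% with midpoints within 200 bp, which are stricter by construction. The central 33.3% of the span held 36.3% of peaks (95% exact interval 32.3 to 40.5), an interval that includes its 33.3% of the length. Using the list of 1 replicate in place of the combined list gave centre shares of 55.0% to 56.7% and median widths of 366 to 371 bp. Median gaps were 13873 to 23938.5 bp and shares on III 12.6% to 13.9%. Since 511 of 542 combined peaks on III equal replicate 2 peaks, agreement with the replicate 2 list was fixed beforehand. Those alternatives are counted among the 20, as are the stricter overlap rules for recovery in replicate 2. The stricter rules found the same 317 and 315 peaks for recovery in replicate 1, in both, and of replicate 2 peaks in replicate 1. These are thus not separate comparisons. The spread used for the median width, 3.536 bp, was computed from the replicate medians that it judged. The median gap of 23938.5 bp was that of the replicate 1 list, which holds fewer peaks. In the stronger 50% the median width was 426.5 bp and the median gap 29907 bp. Without peaks under 200 bp the median width was 381.5 bp, with close peaks counted as 1 cluster the median gap was 21722 bp, and without peaks on V the share on III was 18.8%.

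No paired analysis was possible because only the ChIP libraries gave lists, and an input with the same number adds no value to pair. Sequencing depth is not known for either replicate, which limits what the absence of a peak from replicate 1 shows.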
